A study of Saccharomyces cerevisiae with 6 samples.

Results

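The genes described here lie next to the chromosome ends of Saccharomyces cerevisiae. They are the nuclear genes with a systematic name in Y whose midpoint was within 20 kb of position 0 or of the last annotated base of their chromosome, with 9 genes listed in the selection left out, of which 6 lay within that distance. This gave 322 genes of the 7126 in the count files and of the 6685 nuclear genes named Y, on all 32 ends of 16 chromosomes, with 4 to 14 genes at an end. No read count enters this rule. Of the 322, 245 matched a gene in the RefSeq annotation of the same build and 77 did not.

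Chromosome ends of budding yeast carry short TG-rich telomere repeats bound by Rap1, which recruits the Sir2, Sir3 and Sir4 silencing proteins, while the Ku heterodimer and telomerase act at the end itself. Genes nearby are often repressed by this silent chromatin, and many belong to families spread over several ends: Y' element helicases, COS membrane proteins, seripauperins, sugar-use genes and enzymes of vitamin synthesis. Spt6 is a histone chaperone that travels with RNA polymerase II and restores nucleosomes behind it, and casein kinase 2 (CK2) phosphorylates it.

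RNA came from 3 strains isogenic to S288C, with 2 libraries each: spt6-7SA, ck2ts and WT. All were mat a with leu2D1, lys2-128d and a deletion of bar1, and all, WT included, were moved to 39 °C for 2 h. The bar1 deletion carries NAT in ck2ts and WT and KanMX6 in spt6-7SA. The spt6-7SA strain has spt6D::kanMX6 and a centromeric URA3 plasmid with FLAG-spt6 7S-A, together with his3D200, a ura3 deletion and IWS1-13MYC::HIS3. The ck2ts strain has cka1 deleted with KanMX6 and cka2D225N::NAT, so both catalytic subunits of CK2 are altered. Both ck2ts and WT also carry a galactose-driven FLAG-tagged histone H3 gene with a histone H4 gene at ura3-52, which the genotype of spt6-7SA does not list. The labels do not say that the 2 libraries of a strain came from separate cultures, so the p-values measure the spread between these libraries, which may be technical. CKA1, deleted in ck2ts, had 49.5 and 56.5 CPM in spt6-7SA, 3.13 and 1.84 CPM in ck2ts, and 61.9 and 60.5 CPM in WT, and BAR1 had 0 or 1 read in each library. Sense reads per library numbered 64198311 to 64305808 in spt6-7SA, 56307173 to 65546990 in ck2ts and 58157852 to 83375420 in WT, and antisense reads 2799589 to 3876104 over the 6 libraries. Levels are in CPM, sense read counts scaled to the TMM library size, and "rose", "fell" and "passed" mean an adjusted p under 0.05 over all genes in edgeR (quasi-likelihood, Benjamini-Hochberg).

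The sequence at an end shows what these genes neighbour. The first 60 bases of chromosome I, chrI:1-60 of build R64, plus strand, are written here from the RefSeq reference, as are all sequences below; they are C and A on this strand, the complement of the TG-rich repeat.

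chromosome I left end: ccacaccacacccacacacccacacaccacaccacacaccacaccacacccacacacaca

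Copies at different ends are shown next, since they set how far single genes can be told apart with 50-base reads. Each line holds bases 632 to 691 of an enolase-related ERR gene or bases 409 to 468 of a THI gene, the thiamine pyrimidine synthase family, 5′ to 3′ along the gene; capitals mark bases that differ from the first gene of the family. ERR1 lies at chrXV:1080907-1080966 (plus strand), ERR2 at chrXVI:10180-10239 (minus strand) and ERR3 at chrXIII:920719-920778 (plus strand) in build R64.

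ERR1: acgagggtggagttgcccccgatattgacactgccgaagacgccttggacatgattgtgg

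ERR2: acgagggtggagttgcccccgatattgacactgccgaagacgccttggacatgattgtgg

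ERR3: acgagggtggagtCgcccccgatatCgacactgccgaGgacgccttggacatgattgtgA

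THI5, at chrVI:13337-13396 (plus strand), THI11, at chrX:729129-729188 (minus strand), THI12, at chrXIV:15240-15299 (plus strand), and THI13, at chrIV:16612-16671 (plus strand), differ in the same way.

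THI5: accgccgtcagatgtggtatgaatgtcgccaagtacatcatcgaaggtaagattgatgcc

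THI11: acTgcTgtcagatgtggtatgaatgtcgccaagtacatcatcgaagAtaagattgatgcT

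THI12: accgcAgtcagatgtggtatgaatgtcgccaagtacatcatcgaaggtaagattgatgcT

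THI13: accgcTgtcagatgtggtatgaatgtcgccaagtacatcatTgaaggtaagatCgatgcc

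ERR1 and ERR2 are identical over all 1314 bases, and ERR3 differs from them at 12. The 4 THI genes, of 1023 bases each, differ pairwise at 7 to 23 bases. Over the 322 genes, 162 have more than 50% of their 50-base windows elsewhere in the genome too, 98 have more than 90% and 122 have less than 10%. In 9 sets, 25 genes in all with at least 60 reads over the libraries, the copies have the same count in every library, as in YRF1-1, YRF1-5 and YRF1-8 with 7490 and 8884 sense reads each in spt6-7SA, 5437 and 5717 in ck2ts, and 4489 and 4511 in WT. Such copies are 1 measurement entered several times, and for most families the copies cannot be told apart; the main counts below are therefore also given over genes with less than 10% of shared windows.

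Subtelomeric genes were low in WT cells. Their median level per length was 6.72 CPM per kb, against 33.1 CPM per kb for nuclear genes beyond 20 kb; 111 were below 1 CPM in WT, 17 were over 100 CPM, and 8 had no sense read in any library. By distance the median WT level was 1.25 CPM per kb at 0 to 5 kb, 4.37 at 5 to 10 kb, 8.33 at 10 to 15 kb, 14.6 at 15 to 20 kb, 20.7 at 20 to 40 kb and 33.8 beyond 40 kb. The levels thus climbed with each step inward, while the median share of repeated windows went the other way, with 93.1% at 0 to 5 kb, 50.3%, 47.0% and 0.0% at 15 to 20 kb. Of the 322 genes, 283 passed the filter on low counts and were tested on the sense strand; the other 39 stay without a test, and the counts below cover the tested ones only.

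In spt6-7SA against WT, subtelomeric genes mostly rose. On the sense strand 171 of 283 rose and 17 fell, 60.4% and 6.01%, where 26.7% of all genes tested rose and 24.1% fell. Their median log2 fold change was 0.75, against 0.02 over all genes tested. In bulk RNA, more cells that express a gene and more RNA per cell cannot be told apart. Over the genes with less than 10% of shared windows, 64 of 110 rose and 10 fell, with a median of 0.51. The count of falls rests on few genes and ran from 9 to 32 over the alternative fits of these genes; it was 9 without WT replicate 1, 9 without spt6-7SA replicate 1 and 11 without spt6-7SA replicate 2.

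In ck2ts against WT, subtelomeric genes moved both ways. On the sense strand 123 of 283 rose and 58 fell, 43.5% and 20.5%, where 32.5% of all genes tested rose and 32.3% fell, and the median was 0.41 against 0.02. Over the genes with less than 10% of shared windows 51 of 110 rose and 20 fell, with a median of 0.37. Of the 77 genes that are not in RefSeq, 54 were tested, and 11 rose and 19 fell in ck2ts, while 112 of 229 tested RefSeq genes rose and 39 fell; this split was not tested. In spt6-7SA against WT, 19 of those 54 rose and 3 fell. Several of the 77, such as YGR296C-B, YPR204C-A and YPL283W-B, lie in telomeres that hold a Y' element and have 100% of repeated windows. Copies of this kind can share reads, so these counts are not of separate measurements. Of the 64 tested genes in such telomeres, in RefSeq or not, 31 rose and 15 fell in ck2ts. Whether the RefSeq split holds apart from such copies was not tested.

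Set directly against ck2ts, spt6-7SA had 111 of 283 subtelomeric genes higher and 40 lower, 39.2% and 14.1%, where 27.7% of all genes tested were higher and 24.7% lower; the median log2 difference was 0.40. Over the genes with less than 10% of shared windows 43 of 110 were higher and 28 lower, 39.1% and 25.5%, with a median of 0.19. The 3 comparisons share libraries pairwise, so their counts are not independent of each other.

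The 322 genes together took 1.60% and 1.67% of the sense reads of nuclear Y genes in spt6-7SA, 1.54% and 1.59% in ck2ts, and 1.03% and 1.10% in WT. The libraries of both mutants lay above those of WT. The mean share was 1.64% ± 0.0533 in spt6-7SA, 1.57% ± 0.0407 in ck2ts and 1.07% ± 0.0512 in WT (SD, n = 2 each), which is 1.53 and 1.47 times WT. One Ty1 retrotransposon gene, YHR214C-B, held a large part of these reads, and without it the shares were 1.24% and 1.35% in spt6-7SA, 1.11% and 1.22% in ck2ts, and 0.800% and 0.924% in WT. The gag gene YHR214C-C, which lies inside YHR214C-B on the same strand and has 96.6% of repeated windows, stayed in these shares. The genes with less than 10% of shared windows gave smaller ratios, 1.21 in spt6-7SA and 1.19 in ck2ts.

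**Figure D1:**
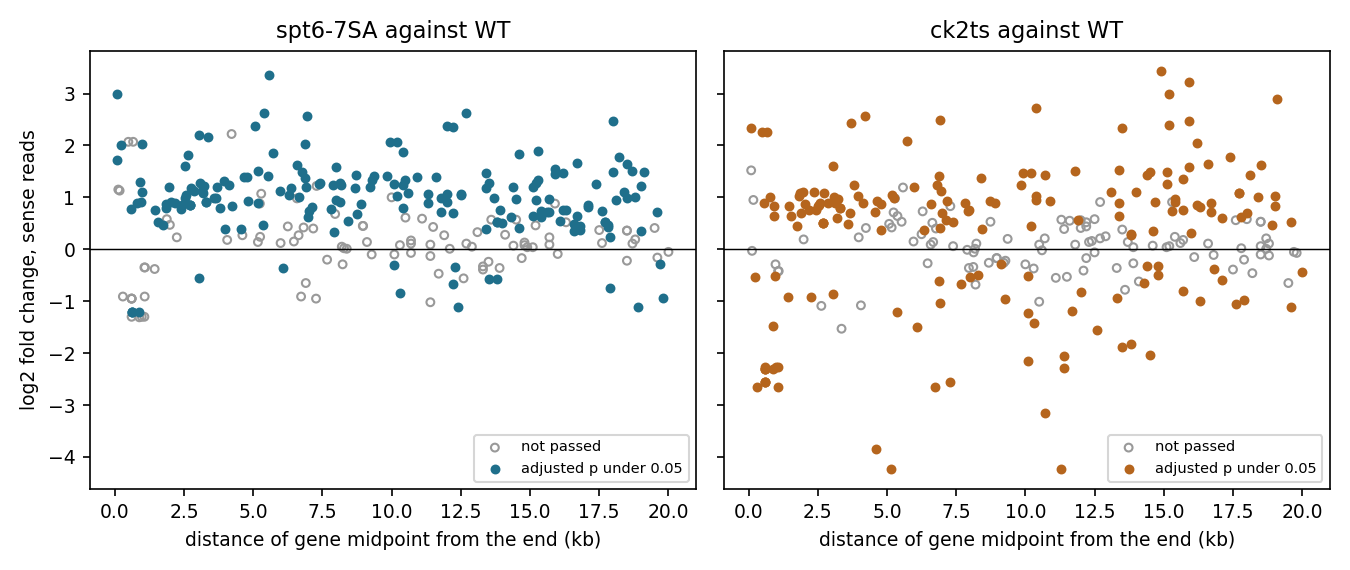
Log2 fold change of sense reads (y axis) of the 283 tested subtelomeric genes by distance of the gene midpoint from the chromosome end in kb (x axis), for spt6-7SA against WT (left) and ck2ts against WT (right); filled points passed an adjusted p of 0.05 and open points did not. In spt6-7SA 171 filled points lie above 0 and 17 below; in ck2ts 123 lie above and 58 below.

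In spt6-7SA rises outnumbered falls in each bin of distance within the 20 kb. At 0 to 5 kb 48 of 75 tested genes rose and 5 fell, at 5 to 10 kb 41 of 67 rose and 1 fell, at 10 to 15 kb 36 of 74 rose and 7 fell, and at 15 to 20 kb 46 of 67 rose and 4 fell. The medians were 0.89, 0.91, 0.53 and 0.65 on the log2 scale. Farther in, at 20 to 40 kb, 112 of 306 rose and 59 fell, with a median of 0.21, and beyond 40 kb 1513 of 5912 rose and 1515 fell, with a median of 0.01. Across the 283 genes Spearman's rho of distance and log2 fold change was -0.09 in spt6-7SA and 0.04 in ck2ts; this describes genes that share ends and copies, which are not independent.

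In ck2ts the rises were most frequent in the outermost and the innermost bins. At 0 to 5 kb 44 of 75 rose and 19 fell, at 5 to 10 kb 24 of 67 rose and 12 fell, at 10 to 15 kb 22 of 74 rose and 19 fell, and at 15 to 20 kb 33 of 67 rose and 8 fell. At 20 to 40 kb 121 of 306 rose and 86 fell, and beyond 40 kb 1936 of 5912 rose and 1956 fell. No difference between bins was tested. At 0 to 5 kb the median share of repeated windows was 93.1%, so that bin counts many copies that can share reads. For neither mutant were the bins split by shared windows.

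**Figure D2:**
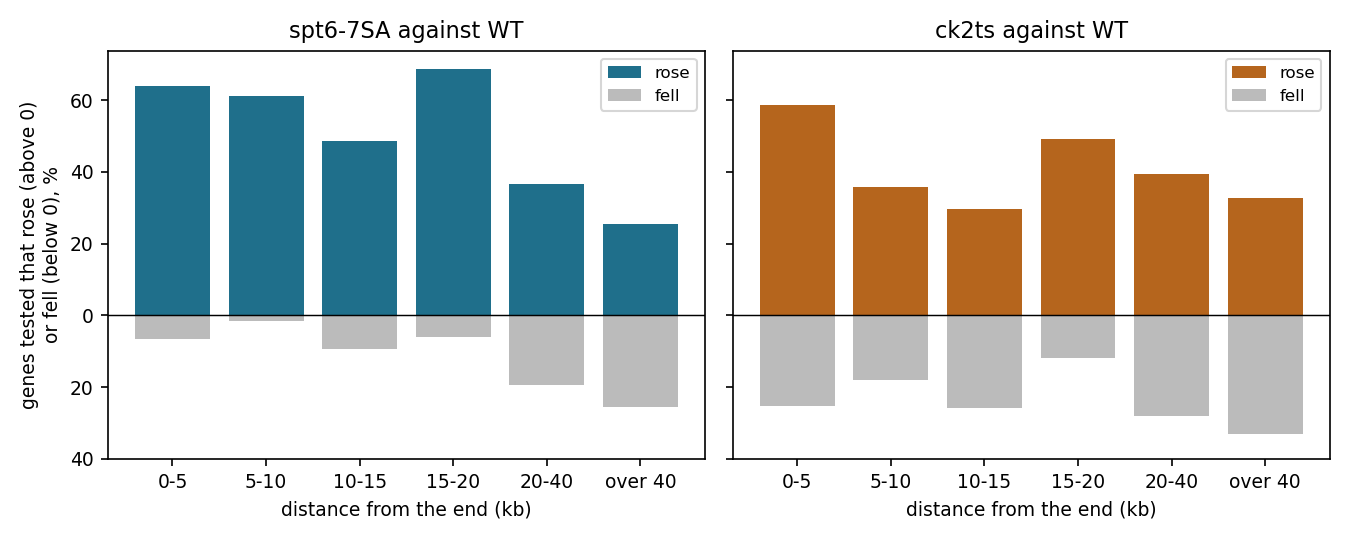
Percent of tested genes whose sense reads rose (coloured bars above 0) or fell (grey bars below 0) by distance from the chromosome end in kb, for spt6-7SA against WT (left) and ck2ts against WT (right). In spt6-7SA the rises make 48.6% to 68.7% of the 4 bins within 20 kb, 36.6% at 20 to 40 kb and 25.6% beyond; in ck2ts they make 29.7% to 58.7%, 39.5% and 32.7%.

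At each of the 32 ends spt6-7SA had more subtelomeric genes that rose than fell, and 31 of the 32 medians were above 0. Medians ran from -0.01 at the left end of chromosome II to 1.18, a value reached at the right ends of III and X and the left end of XVI. In ck2ts 25 ends had more rises than falls, 3 had as many of each and 4 had more falls. The ck2ts medians ran from -0.71 at the right end of XIV, where 1 of 8 tested genes rose and 5 fell, to 1.28 at the right end of XI, where all 4 rose. The right end of chromosome I had 5 rises and 0 falls of 9 in spt6-7SA, and 0 rises and 5 falls of 9 in ck2ts. Over genes with less than 10% of shared windows, 21 ends had more rises than falls in spt6-7SA, 10 had as many of each and 1 had more falls. In ck2ts these counts were 18, 10 and 4. The 10 include the right end of I and the left end of X, where no gene has less than 10% of shared windows. Nothing could be counted there, so these ends are not balanced ones. The genes at the right end of I can share reads with copies elsewhere. Without WT replicate 1 or without ck2ts replicate 2, the 25 ends in ck2ts became 20.

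**Figure D3:**
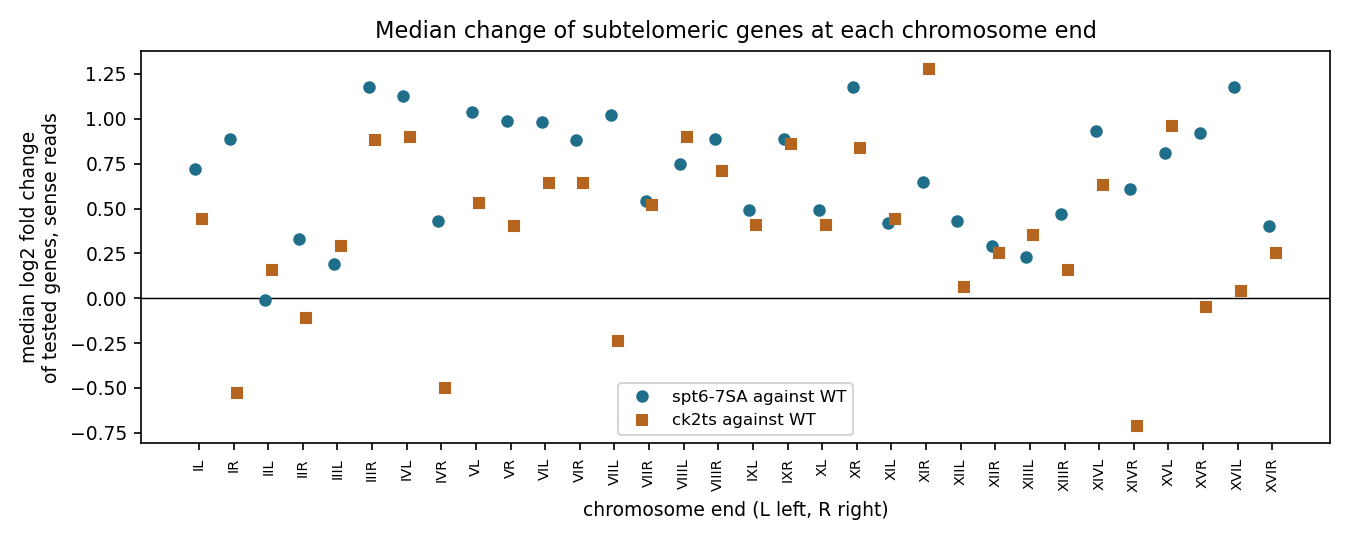
Median log2 fold change of sense reads (y axis) of the tested subtelomeric genes at each of the 32 chromosome ends (x axis, L left and R right), circles for spt6-7SA against WT and squares for ck2ts against WT. Circles lie between -0.01 and 1.18 with 31 above 0; squares lie between -0.71 and 1.28 with 26 above 0.

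Distance is the only threshold in the choice of genes. Just inside it lay SEA4 at 19.73 kb, ERG13 at 19.80 kb and GAB1 at 19.97 kb, with log2 fold changes of -0.28, -0.93 and -0.05 in spt6-7SA; in ck2ts they were -0.05, -0.07 and -0.43. Just outside lay ARN1 at 20.03 kb, PRE4 at 20.05 kb and YHR214W at 20.09 kb, with -0.02, 0.30 and 0.68 in spt6-7SA; in ck2ts they were -1.33, 0.46 and -0.37. All 3 genes just inside had values at or below WT in both mutants, and those just outside had values on either side of it.

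The largest rises in spt6-7SA among genes with at least 1 CPM included 1 well-read biosynthetic gene and several low ones. LYS1, whose product makes lysine from saccharopine in the last step of the pathway, had 156 and 151 CPM in spt6-7SA, 47.2 and 42.1 CPM in ck2ts, and 22.9 and 32.0 CPM in WT. The spt6-7SA libraries stood clear of the others, at 5.59-fold WT (log2 2.48, SE 0.16, edgeR adjusted p = 0.000152); it rose in ck2ts too, by 0.70 on the log2 scale. HSP33, HSP32 and SNO4, 3 near copies related to the Hsp31 glyoxalase and chaperone, rose together. SNO4 had 5.61 and 4.24 CPM in spt6-7SA, 1.24 and 1.44 CPM in ck2ts, and 0.860 and 1.05 CPM in WT. Their log2 fold changes in spt6-7SA were 2.37, 2.36 and 2.37, and with 76.4% to 100% of shared windows reads may be shared between them. COS12, a COS gene with no shared window, had 3.75 and 2.52 CPM in spt6-7SA, 0.124 and 0.369 CPM in ck2ts, and 0.436 and 0.984 CPM in WT. It rose in spt6-7SA (log2 2.17, SE 0.49, edgeR adjusted p = 0.00971), a call that was lost without WT replicate 1 (adjusted p = 0.0522) or without spt6-7SA replicate 1 (adjusted p = 0.0505). ERR1, ERR2 and ERR3 complete the 8 largest rises. IMD2, an inosine monophosphate dehydrogenase gene of guanine nucleotide synthesis, rose too and is named after its values were seen. It had 205 and 214 CPM in spt6-7SA, 31.8 and 35.8 CPM in ck2ts, and 48.6 and 54.9 CPM in WT. It rose by 2.02 on the log2 scale in spt6-7SA, while it fell by 0.61 in ck2ts; the related YAR073W and YAR075W, with 33.7% and 30.6% of shared windows, rose by 2.03 and 2.01.

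The largest falls in spt6-7SA were smaller. SRO77, which acts in docking of secretory vesicles, had 17.2 and 16.8 CPM in spt6-7SA, 45.3 and 37.7 CPM in ck2ts, and 36.8 and 37.4 CPM in WT (log2 -1.12 against WT, SE 0.11, edgeR adjusted p = 0.000372). FDC1, a ferulic acid decarboxylase, had 23.7 and 24.7 CPM in spt6-7SA, 65.8 and 79.8 CPM in ck2ts, and 50.6 and 55.1 CPM in WT. Both were lower in spt6-7SA than in any other library. ERG13, the hydroxymethylglutaryl-CoA synthase of sterol synthesis, fell to 212 and 236 CPM in spt6-7SA, against 423 and 431 CPM in WT. MAL33, VAC17, ADH6, FEX2 and FEX1 fell by 0.84, 0.75, 0.66, 0.58 and 0.58 on the log2 scale.

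In ck2ts the 2 best-read genes among the 8 largest rises had no shared window. MSC1, a gene named for meiotic sister-chromatid recombination, had 159 and 134 CPM in spt6-7SA, 535 and 409 CPM in ck2ts, and 44.6 and 56.2 CPM in WT. That is 9.37-fold over WT in ck2ts (log2 3.23, SE 0.19, edgeR adjusted p = 1.84e-05), with no overlap between groups. HXK1, a hexokinase, had 137 and 119 CPM in spt6-7SA, 332 and 374 CPM in ck2ts, and 57.7 and 76.0 CPM in WT. It was 5.28-fold over WT in ck2ts (log2 2.40, SE 0.15, edgeR adjusted p = 2.07e-05). The short YFR052C-A, which lies over HXK1 on the same strand, rose with it by 2.48. VBA3 and VBA5, near copies that code for basic amino acid transporters, rose by 2.72 and 2.43; VBA3 had 6.33 and 5.24 CPM in ck2ts against 0.972 and 0.776 CPM in WT. ECM34, YDL242W and YPR197C, all under 2 CPM, rose by 3.0, 2.90 and 2.33; YPR197C overlaps a feature on the other strand.

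The 250 bases before MSC1 and HXK1 are shown because these are the best-read genes among the largest rises in ck2ts. Capitals mark AGGGG or its reverse complement CCCCT, the core of the stress response element, searched on both strands. MSC1 is on the minus strand, with chrXIII:16677-16926 upstream of it, and HXK1 on the minus strand, with chrVI:255050-255299 upstream; both are written 5′ to 3′ along the gene from build R64.

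MSC1: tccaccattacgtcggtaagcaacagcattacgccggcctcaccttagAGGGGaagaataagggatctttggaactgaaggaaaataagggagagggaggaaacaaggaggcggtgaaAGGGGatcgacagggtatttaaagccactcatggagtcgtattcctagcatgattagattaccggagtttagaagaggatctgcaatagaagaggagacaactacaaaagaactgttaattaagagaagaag

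HXK1: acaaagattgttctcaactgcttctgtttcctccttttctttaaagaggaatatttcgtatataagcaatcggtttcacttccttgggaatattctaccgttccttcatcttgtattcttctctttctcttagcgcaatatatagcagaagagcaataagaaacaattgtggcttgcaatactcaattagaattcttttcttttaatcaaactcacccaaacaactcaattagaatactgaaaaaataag

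MSC1 has 2 matches and HXK1 has 0 in this window. The motif occurs in 18.4% of the 6684 windows of this length before nuclear Y genes, in 13.4% of 321 before subtelomeric genes and in 18.7% of the 123 before those that rose in ck2ts. A match describes these letters only, and binding at them was not tested.

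The falls in ck2ts included both fluoride exporter genes. FEX1 had 55.1 and 56.9 CPM in spt6-7SA, 19.8 and 25.9 CPM in ck2ts, and 82.8 and 85.0 CPM in WT. The groups did not overlap, and FEX1 fell by 1.88 (SE 0.13, edgeR adjusted p = 2.28e-05) in ck2ts and by 0.58 in spt6-7SA on the log2 scale. FEX2 fell by 1.82 in ck2ts and by 0.58 in spt6-7SA, and the 2 genes share 79.4% of their windows. MAL33, a MAL activator gene, had 13.9 and 12.9 CPM in spt6-7SA, 8.05 and 9.81 CPM in ck2ts, and 26.1 and 21.6 CPM in WT, and fell in both mutants. YER187W had 3.57 and 4.02 CPM in spt6-7SA, 0.279 and 0.442 CPM in ck2ts, and 1.55 and 1.64 CPM in WT; it fell by 2.15 in ck2ts and rose by 1.25 in spt6-7SA. VEL1, YOL160W, YNR071C and YMR321C fell by 2.05, 2.03, 1.55 and 1.5 in ck2ts. Of these, YNR071C resembles aldose epimerases.

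Between the mutants, the largest differences lay in low genes. YAR069C and YHR214C-D, identical copies with equal counts, had 79 and 89 reads each in spt6-7SA, 1 and 3 in ck2ts, and 45 and 46 in WT. The ck2ts libraries were the low ones (log2 5.13 for spt6-7SA over ck2ts, SE 0.50, edgeR adjusted p = 0.000228). COS12, YER187W and YBR300C were higher in spt6-7SA than in ck2ts by 3.70, 3.40 and 2.90. ECM34, MSC1, YFR052C-A, FDC1 and VBA3 were lower in spt6-7SA than in ck2ts by 1.73, 1.69, 1.59, 1.59 and 1.48; for YFR052C-A the call was lost without ck2ts replicate 2, without spt6-7SA replicate 1 and without spt6-7SA replicate 2 (adjusted p = 0.0844, 0.149 and 0.113).

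The 8 genes with the highest WT level per length each had 126 CPM or more in both WT libraries. YHR214C-B, a Ty1 gag-pol gene with 98.1% of its windows elsewhere, led with 3090 and 2690 CPM in spt6-7SA, 3790 and 3340 CPM in ck2ts, and 2160 and 1610 CPM in WT, and rose in both mutants. ADH6, an NADPH-dependent alcohol dehydrogenase, and ERG13 followed, and both fell in spt6-7SA. FET4, a low-affinity iron transporter, had 307 and 335 CPM in spt6-7SA, 159 and 180 CPM in ck2ts, and 395 and 394 CPM in WT. FET4 fell in both mutants, by 0.30 in spt6-7SA and by 1.22 in ck2ts. DLD3, a D-lactate dehydrogenase, had 574 and 627 CPM in spt6-7SA, 260 and 192 CPM in ck2ts, and 332 and 353 CPM in WT. DLD3 rose in spt6-7SA by 0.81 and fell in ck2ts by 0.60. ERO1, for disulfide formation in the endoplasmic reticulum, fell by 0.34 in spt6-7SA and had a log2 fold change of 0.14 in ck2ts. HYR1, a peroxidase, fell by 0.33 in ck2ts and had 0.08 in spt6-7SA. COS2 rose in both.

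The Y' element helicases rose in both mutants, with a step between replicates. YRF1-6 had 163 and 191 CPM in spt6-7SA, 119 and 179 CPM in ck2ts, and 62.4 and 90.1 CPM in WT. Replicate 2 was the higher library in each strain, but neither mutant overlapped WT. All 8 YRF1 genes rose in spt6-7SA, by 0.68 to 1.22, and 7 of 8 rose in ck2ts, where the range was 0.50 to 0.97; YRF1-6 had adjusted p = 0.00665 in spt6-7SA and 0.0110 in ck2ts (edgeR). In ck2ts the calls of YRF1-2, YRF1-3, YRF1-6 and YRF1-7 were lost without WT replicate 1 (adjusted p = 0.0639 to 0.0964), and those of YRF1-2, YRF1-3 and YRF1-7 without ck2ts replicate 2 as well (adjusted p = 0.0559 to 0.0875). These 4 genes had the smallest p of the YRF1 genes in ck2ts, and fits without 1 library are not given for the others there. At least 98.0% of the windows of the YRF1 genes recur, so the 8 genes cannot be told apart. All 8 overlap a feature on the other strand and had no antisense test. Of the 64 tested genes inside annotated telomeres that hold a Y' element, 37 rose and 4 fell in spt6-7SA, and 31 rose and 15 fell in ck2ts. Among all genes tested 26.7% rose and 24.1% fell in spt6-7SA, and 32.5% rose and 32.3% fell in ck2ts.

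The COS genes, whose membrane proteins help sort cargo into endosomes, rose as well. In spt6-7SA 9 of 11 rose and 1 fell, where 26.7% of all genes tested rose and 24.1% fell. In ck2ts 8 rose and 1 fell, where 32.5% of all genes tested rose and 32.3% fell. COS1, COS2, COS3, COS4, COS5 and COS7 have 66.6% to 100% of shared windows. Their reads can be shared, so these counts are not of separate measurements. COS7 had 158 and 142 CPM in spt6-7SA, 172 and 201 CPM in ck2ts, and 83.6 and 91.1 CPM in WT, a rise of 0.78 (SE 0.11) in spt6-7SA and of 1.10 (SE 0.11) in ck2ts on the log2 scale. COS8, with 17.4% of shared windows, had 79.1 and 76.2 CPM in spt6-7SA, 99.4 and 122 CPM in ck2ts, and 45.1 and 56.1 CPM in WT. Neither mutant overlapped WT in these genes. COS5 and COS1 rose in both mutants, by 0.79 and 0.87 in spt6-7SA and by 1.03 and 0.90 in ck2ts, and COS4 rose by 0.73 in spt6-7SA.

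The seripauperin (PAU) genes, which code for cell wall mannoproteins known from hypoxic growth, differed between the mutants. Of 18 tested, 3 rose and 0 fell in spt6-7SA, where 26.7% of all genes tested rose and 24.1% fell. In ck2ts 0 rose and 8 fell, where 32.5% of all genes tested rose and 32.3% fell. Set against ck2ts, 13 of the 18 were higher in spt6-7SA and 0 lower, where 27.7% of all genes tested were higher and 24.7% lower. PAU18 had 11.5 and 15 CPM in spt6-7SA, 8.41 and 9.68 CPM in ck2ts, and 18.5 and 16.0 CPM in WT. PAU18 fell by 0.93 in ck2ts (SE 0.16, edgeR adjusted p = 0.00151), and its log2 fold change in spt6-7SA was -0.39 (adjusted p = 0.0760), a fall that passed without spt6-7SA replicate 2 (adjusted p = 0.0409). PAU6, PAU24 and PAU9 fell in ck2ts by 0.92, 0.92 and 0.66. The rises in spt6-7SA, of PAU22, PAU21 and PAU19, are of genes with 0.674 to 1.32 CPM there, and that of PAU19 was lost under DESeq2 (adjusted p = 0.104) and without either WT or either spt6-7SA library (adjusted p = 0.127 to 0.165). Of the windows of PAU genes, 39.0% to 100% recur, so copies can share reads and these counts are not of separate measurements.

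Thiamine, pyridoxine and sorbitol or formate genes rose in spt6-7SA. All 4 THI genes rose in both mutants, by 1.33 to 1.67 in spt6-7SA and by 0.65 to 0.85 in ck2ts, and all 4 were higher in spt6-7SA than in ck2ts. THI13, with the fewest shared windows of the 4 (60%), had 39.3 and 32.1 CPM in spt6-7SA, 19.4 and 17.3 CPM in ck2ts, and 10.6 and 11.9 CPM in WT. The 3 groups did not overlap. SNZ2, SNZ3, SNO2 and SNO3 belong to pyridoxine (vitamin B6) synthesis. SNO4, the near copy of HSP32 and HSP33, is listed with them by name only and is not counted as a pyridoxine gene. All 5 rose in spt6-7SA, by 0.99 to 2.37 with a median of 1.04, and the highest value is that of SNO4. None of the 5 passed in ck2ts, where values ran from -0.06 to 0.49. SNZ2 had 78.8 and 75.6 CPM in spt6-7SA, 37.8 and 47.7 CPM in ck2ts, and 36.5 and 41.1 CPM in WT. For the ck2ts comparison SNO2 passed as a fall without ck2ts replicate 2 (log2 -0.35, adjusted p = 0.0274). The sorbitol dehydrogenase genes SOR1 and SOR2 and the formate dehydrogenase genes FDH1 and FDH2 all rose in spt6-7SA, by 1.18 to 1.64, and none passed in ck2ts. SOR2 had 11.4 and 10.0 CPM in spt6-7SA, 3.95 and 3.85 CPM in ck2ts, and 4.61 and 4.76 CPM in WT; the call of FDH2 was lost without WT replicate 1 (adjusted p = 0.0542). All 5 SNZ and SNO genes and all 4 of these dehydrogenase genes were also higher in spt6-7SA than in ck2ts by that comparison's own test. Of all genes tested 27.7% were higher there, while 26.7% rose in spt6-7SA and 32.5% rose in ck2ts against WT. From 77.1% to 86.5% of the windows of SNZ and SNO genes recur, and 84.2% to 95.1% of those of the dehydrogenase genes. Copies can therefore share reads, and these counts are not of separate measurements.

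**Figure D4:**
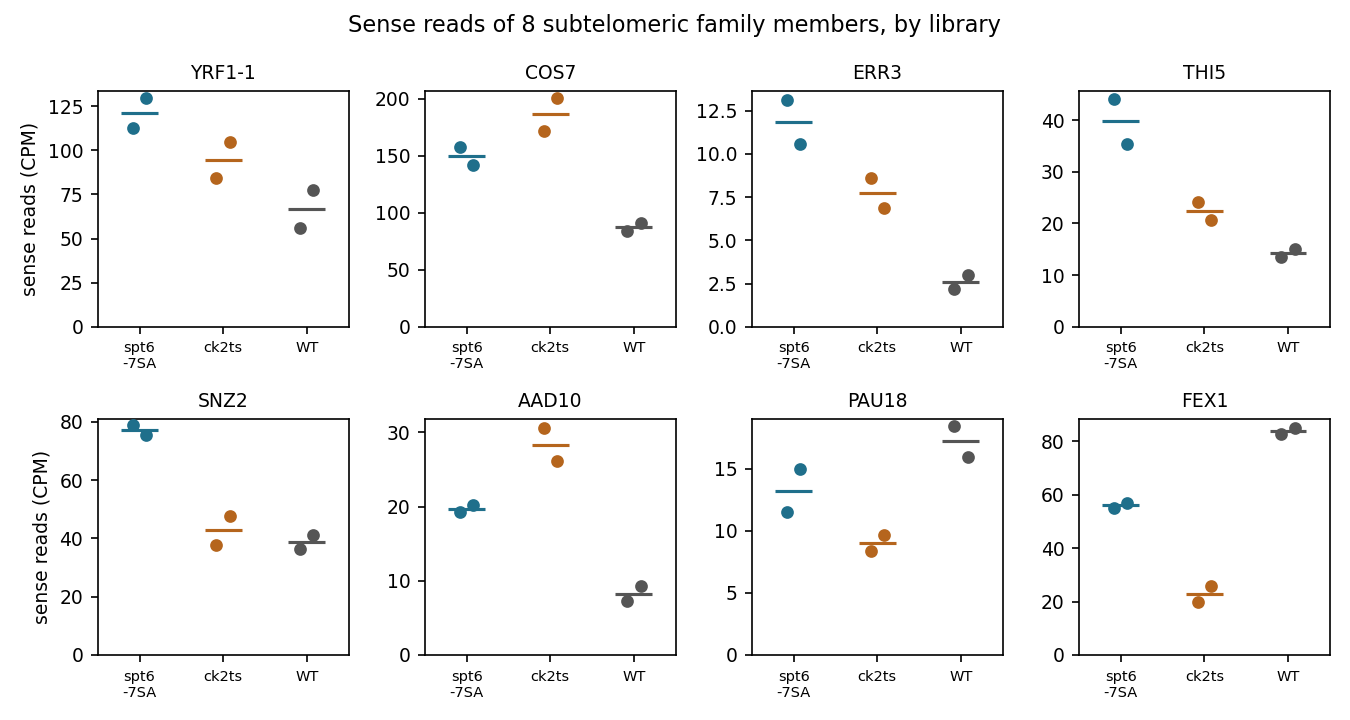
Sense reads in CPM (y axis, linear from 0) of 8 subtelomeric family genes in each library, spt6-7SA left, ck2ts in the middle and WT right; points are the 2 libraries and short lines their mean. THI5 and SNZ2 are highest in spt6-7SA, COS7 and AAD10 in ck2ts, and FEX1 is lowest in ck2ts, with 19.8 and 25.9 CPM against 82.8 and 85.0 CPM in WT.

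Most aryl-alcohol dehydrogenase and sugar genes rose in both mutants, where 26.7% of all genes tested rose in spt6-7SA and 32.5% in ck2ts. The aryl-alcohol dehydrogenase (AAD) genes all rose: 6 of 6 in spt6-7SA by 0.47 to 1.26, and 6 of 6 in ck2ts by 0.45 to 1.78. AAD10, with 2.44% of shared windows, had 19.2 and 20.2 CPM in spt6-7SA, 30.6 and 26.1 CPM in ck2ts, and 7.29 and 9.25 CPM in WT. AAD4 had 28.3 and 31.0 CPM in spt6-7SA, 41.5 and 41.0 CPM in ck2ts, and 14.3 and 16.3 CPM in WT. The ck2ts libraries were highest in both genes, and 4 of the 6 AAD genes were lower in spt6-7SA than in ck2ts, as were 24.7% of all genes tested. Of the isomaltase, maltose and MPH permease genes 7 of 10 rose and 1 fell in spt6-7SA, and 9 rose and 1 fell in ck2ts; the gene that fell was MAL33 in both. MPH2, an alpha-glucoside permease, had 23.9 and 24.2 CPM in spt6-7SA, 13.4 and 14.4 CPM in ck2ts, and 9.63 and 11.4 CPM in WT. MAL11, a maltose permease, had 14.2 and 13.3 CPM in spt6-7SA, 18.8 and 17.0 CPM in ck2ts, and 6.79 and 7.28 CPM in WT. MAL13, an activator gene, rose by 0.71 in spt6-7SA. IMA3 and IMA4, identical isomaltase copies, rose by 0.52 in spt6-7SA and 1.08 in ck2ts.

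The ERR genes printed above rose in both mutants. ERR3 had 13.1 and 10.6 CPM in spt6-7SA, 8.60 and 6.90 CPM in ck2ts, and 2.16 and 2.97 CPM in WT. That is a rise of 2.21 (SE 0.21, edgeR adjusted p = 0.000379) in spt6-7SA and of 1.61 (SE 0.21, edgeR adjusted p = 0.00041) in ck2ts. ERR1 and ERR2, identical in sequence, had log2 fold changes of 2.06 each in spt6-7SA and of 1.46 and 1.47 in ck2ts.

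Among the iron and glutathione genes, GEX2 and GEX1, glutathione exchangers, and FRE2, a metal reductase, rose in spt6-7SA by 1.29, 1.28 and 1.02 and in ck2ts by 0.65, 0.52 and 0.44. The ck2ts call of GEX1 was lost without WT replicate 1 or ck2ts replicate 2 (adjusted p = 0.128 and 0.0914). ARN2, a siderophore transporter, had 153 and 149 CPM in spt6-7SA, 88.9 and 77.9 CPM in ck2ts, and 168 and 156 CPM in WT; it fell by 0.95 in ck2ts. The hexose transporter genes HXT15, HXT16 and HXT17 stayed under 2 CPM. HXT15 and HXT16 rose in spt6-7SA by 1.07 each, calls that DESeq2 did not make (adjusted p = 0.0590 and 0.0644) and that leaving out any WT or spt6-7SA library ended (adjusted p = 0.106 to 0.174). HXT17 had a log2 fold change of 1.00 in spt6-7SA (edgeR adjusted p = 0.0526) and passed under 5 alternatives (adjusted p = 0.0267 to 0.0426). In ck2ts, HXT15 and HXT16 passed only in the fit without ck2ts replicate 2 (adjusted p = 0.0299 and 0.0323). Antisense reads over these genes were more numerous than sense reads: HXT15 had 31.6 and 25.9 antisense CPM in spt6-7SA, 39.4 and 31.0 in ck2ts, and 18.1 and 17.1 in WT. All 3 HXT genes rose on the antisense strand in both mutants, where 31.9% of all genes tested rose in spt6-7SA and 50.2% in ck2ts. HXT15 and HXT16, with 94.2% and 94.0% of repeated windows, can share reads. VTH1 and VTH2, vacuolar sorting receptor copies with 98.9% of shared windows, rose by 0.53 each in spt6-7SA and by 0.28 and 0.29 in ck2ts, where every leave-one-out fit but that without ck2ts replicate 1 ended the call (adjusted p = 0.0571 to 0.119).

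The silent mating cassette HML on the left arm of chromosome III falls within the distance. HMLALPHA2, a homeodomain repressor gene, had 31.0 and 29.7 CPM in spt6-7SA, 35.6 and 29.5 CPM in ck2ts, and 30.6 and 25.8 CPM in WT. HMLALPHA1, the alpha-gene activator, had 0.331 and 0.308 CPM in spt6-7SA, 0.403 and 0.590 CPM in ck2ts, and 0.436 and 0.311 CPM in WT. Neither gene passed in spt6-7SA (log2 0.11 and -0.24) or in ck2ts (0.21 and 0.38). All of their windows recur elsewhere in the reference genome, some in 3 copies. Their reads therefore cannot be assigned to HML, and these values do not measure its silencing. The strain label mat a was checked with cell-type genes: 6 a-cell genes summed to 786 and 732 CPM in spt6-7SA, 317 and 331 CPM in ck2ts, and 518 and 413 CPM in WT. Of these a-cell genes 3 rose and 0 fell in spt6-7SA, and 1 rose and 5 fell in ck2ts. The 4 alpha-cell genes summed to 73.5 and 67.7 CPM in spt6-7SA, 108 and 96.8 CPM in ck2ts, and 43.0 and 39.8 CPM in WT. All 4 rose in both mutants, where 26.7% of all genes tested rose in spt6-7SA and 32.5% in ck2ts. MF(ALPHA)1 and MF(ALPHA)2 were low in WT, with means of 1.04 and 0.311 CPM. The part of these cell-type genes in the subtelomeric values was not tested.

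Among genes for the silencing and telomere machinery some rose and some fell, as among all genes tested. Of a list of 32 (Sir, Rap1, Ku, telomerase, deacetylase and related genes, of which RPD3 is itself a subtelomeric gene here) 12 rose and 6 fell in spt6-7SA, with a median of 0.07, and 10 rose and 9 fell in ck2ts, with a median of 0.11. Of all genes tested 26.7% rose and 24.1% fell in spt6-7SA, and 32.5% rose and 32.3% fell in ck2ts, so the ck2ts counts are near the background and are no result about the list. RAP1 had 131 and 122 CPM in spt6-7SA, 83.9 and 77.2 CPM in ck2ts, and 185 and 179 CPM in WT. RAP1 fell by 0.53 in spt6-7SA and by 1.17 in ck2ts (SE 0.09, edgeR adjusted p = 0.00245 and 3.11e-05). SIR2 fell by 0.27 in spt6-7SA and by 0.50 in ck2ts, whereas SIR3 (-0.05 in spt6-7SA, -0.03 in ck2ts) and SIR4 (-0.11 in spt6-7SA, 0.15 in ck2ts) did not pass. EST1, a telomerase subunit, rose by 0.64 in spt6-7SA and 1.02 in ck2ts, and YKU70, a Ku subunit, rose by 0.63 in spt6-7SA and 0.89 in ck2ts. CDC13, which binds the single-stranded end, rose by 0.50 in spt6-7SA and 0.92 in ck2ts. STN1, its partner, rose by 0.57 in spt6-7SA and 0.56 in ck2ts. HST4, a Sir2-like deacetylase, rose by 0.74 in spt6-7SA and did not pass in ck2ts (0.15). Whether these levels take part in the subtelomeric changes was not tested.

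Antisense reads were compared for the 251 genes that overlap no feature on the other strand, of which 199 passed the count filter. In spt6-7SA against WT 91 of 199 rose and 12 fell, 45.7% and 6.03%, where 31.9% of all genes tested rose and 9.53% fell; the median was 0.64 against 0.33. Over genes with less than 10% of shared windows 42 of 86 rose and 4 fell, 48.8% and 4.65%, with a median of 0.83. The falls were 1 without spt6-7SA replicate 1 and 5 without spt6-7SA replicate 2. In ck2ts against WT 91 of 199 rose and 31 fell, 45.7% and 15.6%, where 50.2% of all genes tested rose and 11.9% fell. The median in ck2ts was 0.51, against 0.72 over all genes. That order depends on shared windows: over genes with less than 10% of them 51 of 86 rose and 10 fell in ck2ts, 59.3% and 11.6%, with a median of 1.03, and over the others 40 of 113 rose and 21 fell, with a median of 0.03. Between the mutants 55 of 199 were higher in spt6-7SA than in ck2ts and 43 lower, 27.6% and 21.6%, where 13.8% of all genes tested were higher and 34.5% lower; without spt6-7SA replicate 1 the 55 became 36. Here the direction turned with shared windows: over genes with less than 10% of them 16 of 86 were higher and 33 lower, 18.6% and 38.4%, with a median of -0.31, the same as over all genes, and over the others 39 of 113 were higher and 10 lower, with a median of 0.33.

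By distance, antisense reads in spt6-7SA rose in 19 of 36 genes and fell in 0 at 0 to 5 kb, rose in 19 of 47 and fell in 6 at 5 to 10 kb, rose in 25 of 61 and fell in 5 at 10 to 15 kb, and rose in 28 of 55 and fell in 1 at 15 to 20 kb. The medians were 1.07, 0.54, 0.62 and 0.68. At 20 to 40 kb 117 of 266 rose and 14 fell, with a median of 0.60, and beyond 40 kb 1531 of 4898 rose and 491 fell, with a median of 0.32. In ck2ts 19 of 36 rose and 3 fell at 0 to 5 kb, 12 of 47 rose and 14 fell at 5 to 10 kb, 26 of 61 rose and 11 fell at 10 to 15 kb, and 34 of 55 rose and 3 fell at 15 to 20 kb, with medians of 0.57, -0.43, 0.51 and 1.10. At 20 to 40 kb 158 of 266 rose and 19 fell, with a median of 1.0, and beyond 40 kb 2485 of 4898 rose and 585 fell, with a median of 0.74. The ck2ts bin at 5 to 10 kb was the only bin with more falls than rises and with a median below 0 in these 2 comparisons.

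Single antisense changes were large from a low base. YKL222C, an uncharacterised gene, had 0.812 and 0.718 antisense CPM in spt6-7SA, 0.619 and 0.719 in ck2ts, and 0.0374 and 0.0345 in WT. Both mutants lay far above WT, with log2 fold changes of 4.33 (SE 0.49) in spt6-7SA and 4.14 (SE 0.50) in ck2ts. The WT values rest on very few reads. YKL222C passed the count filter through the mutant libraries, where it was high, so no p-value is given. AYT1, an acetyltransferase gene, had 36 and 26 antisense reads in spt6-7SA, 53 and 30 in ck2ts, and 2 and 0 in WT. Its ratio over WT was 31.8 in spt6-7SA (95% exact binomial interval 8.44 to 268) and 48.3 in ck2ts (13.0 to 405), intervals of counting error only. NFT1, an ABC transporter gene, had 0.948 and 0.835 antisense CPM in spt6-7SA, 7.43 and 5.05 in ck2ts, and 0.374 and 0.362 in WT. NFT1 was highest in ck2ts, 16.9-fold over WT (SE 0.27 on the log2 scale, edgeR adjusted p = 8.57e-09), and rose by 1.27 on the log2 scale in spt6-7SA. YPR196W, a putative maltose regulator, had 2.06 and 2.27 antisense CPM in spt6-7SA, 6.26 and 6.43 in ck2ts, and 0.760 and 0.380 in WT. AAD6 rose by 2.61 in spt6-7SA and 3.82 in ck2ts, and RDS1, YOL163W and ERR1 rose by 3.06, 2.91 and 2.46 in spt6-7SA.

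Antisense falls were fewer and stood partly in genes whose sense reads rose. SNO4 had 0.617 and 0.835 antisense CPM in spt6-7SA, 0.434 and 0.387 in ck2ts, and 2.06 and 1.38 in WT, a fall of 1.25 in spt6-7SA and 2.07 in ck2ts. The spt6-7SA call was lost without WT replicate 1 or spt6-7SA replicate 1 (adjusted p = 0.0715 and 0.0688). LYS1 had 0.677 and 0.835 antisense CPM in spt6-7SA, 4.88 and 4.85 in ck2ts, and 1.55 and 2.04 in WT. LYS1 antisense reads fell by 1.23 in spt6-7SA (edgeR adjusted p = 0.000661) and rose by 1.45 in ck2ts, whereas its sense reads rose in both. YMR321C fell by 1.17 in spt6-7SA and 2.70 in ck2ts, a call in spt6-7SA that was lost without spt6-7SA replicate 1 (adjusted p = 0.0628), and HSP33 fell by 2.10 in ck2ts. Between the mutants, antisense reads of YOR392W, YHR214C-E, YEL073C, YAR070C and VEL1 were higher in spt6-7SA than in ck2ts by 2.38, 2.33, 2.29, 2.23 and 2.16. Those of NFT1, LYS1 and AAD10 were lower in spt6-7SA than in ck2ts by 2.81, 2.68 and 2.08.

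**Figure D5:**
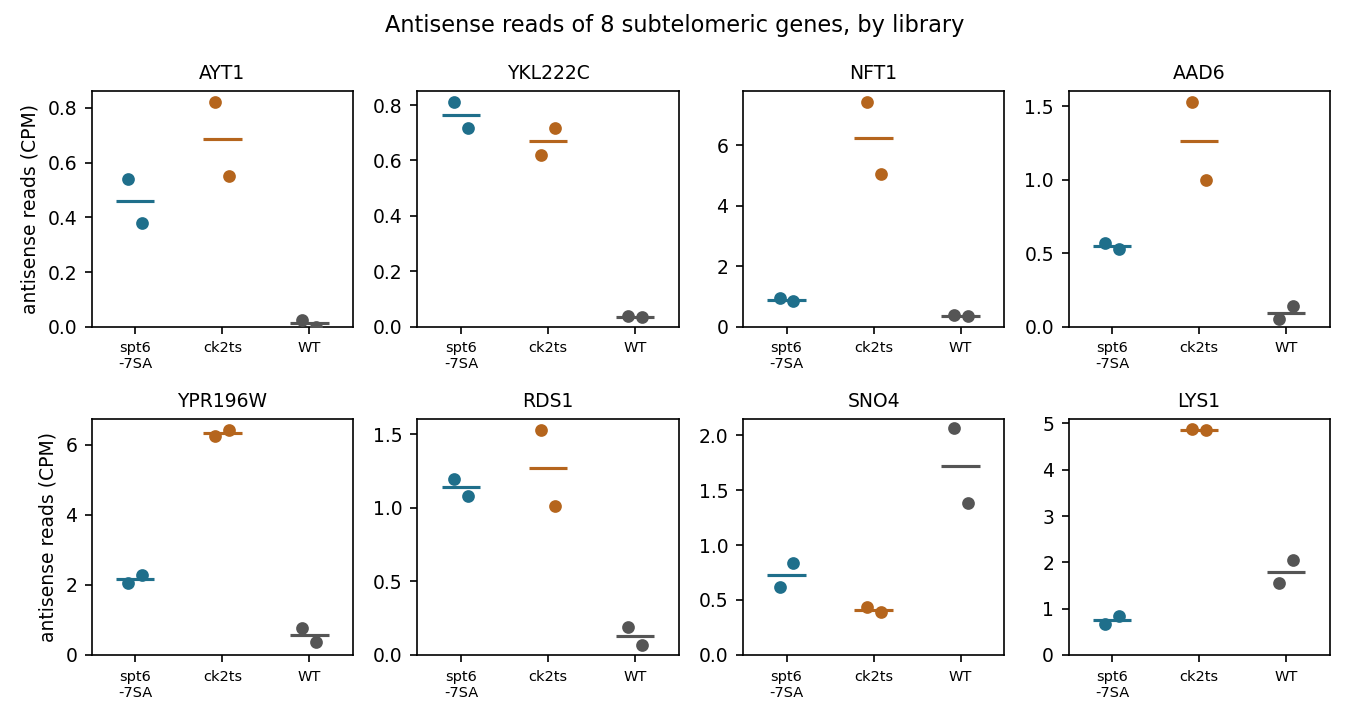
Antisense reads in CPM (y axis, linear from 0) of 8 subtelomeric genes in each library, spt6-7SA left, ck2ts in the middle and WT right; points are the 2 libraries and short lines their mean. NFT1 and YPR196W are highest in ck2ts, YKL222C is near 0 in WT alone, and LYS1 is lowest in spt6-7SA, with 0.677 and 0.835 CPM.

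The ratio of antisense to sense reads was tested with an interaction term (strand by group), which a like rise of both strands leaves unmoved. In spt6-7SA the ratio rose in 36 of 199 subtelomeric genes and fell in 36, 18.1% each, where it rose in 28.3% and fell in 12% of all genes tested; the median was -0.01 against 0.31. These counts were 21 and 22 without WT replicate 1, 21 and 23 without spt6-7SA replicate 1, and the falls were 23 without spt6-7SA replicate 2. Over genes with less than 10% of shared windows the ratio rose in 30 of 86 and fell in 9, with a median of 0.43, and over the others it rose in 6 of 113 and fell in 27, with a median of -0.29. In ck2ts it rose in 71 and fell in 34, where it rose in 46.6% and fell in 14.3% of all genes tested; the median was 0.29 against 0.74. Over genes with less than 10% of shared windows it rose in 45 of 86 and fell in 14 in ck2ts, 52.3% and 16.3%, with a median of 0.81, and over the others it rose in 26 of 113 and fell in 20, with a median of 0.02. AYT1, with 2 antisense reads in WT, led the gains, at 4.13 on the log2 scale in spt6-7SA and 5.16 in ck2ts. It passed the count filter through the mutant libraries, where it was high, so no p-value is given. It was followed by YKL222C and YOR392W in spt6-7SA, at 3.92 and 3.27 on the log2 scale, and by MAL33 and YHR214C-D in ck2ts, at 4.11 and 3.63. The largest losses in spt6-7SA were LYS1, SNO4 and HSP33, at -3.73, -3.60 and -3.53. In ck2ts they were TYC1, HXK1 and YDL242W, at -4.48 (SE 1.63), -3.30 and -2.89. TYC1, an inhibitor of the anaphase-promoting complex, had 0 and 1 antisense reads in ck2ts against 25 and 17 in WT. Its antisense reads alone, without regard to sense, were 0.0277 times WT (95% exact binomial interval 0.000685 to 0.163). The TYC1 call (edgeR adjusted p = 0.0241) was lost without WT replicate 2 or without ck2ts replicate 1 (adjusted p = 0.0597 and 0.185).

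The antisense share held by these genes differed less than the sense share. Among genes without overlap they held 5.18% and 4.78% of antisense reads in spt6-7SA, 4.12% and 4.21% in ck2ts, and 4.29% and 4.06% in WT. In this smaller set the spt6-7SA libraries were the 2 highest, and ck2ts and WT overlapped. The sense share was not taken over the same set.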

How the data were processed

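The files the authors deposited hold whole-number read counts for exons, on the sense and the antisense strand. Per the labels' protocols, rRNA-depleted stranded libraries were read as 50-base single ends. The submitters' processing notes name Trimmomatic, BWA, SAMtools and build R64, with no role for each. Tool versions and the treatment of reads that fit several places are not given in the sources used here. Exon counts were summed to 7126 genes; 6036 of the 6048 genes matched to RefSeq by locus tag had its coordinates, and gene names came from it. Distance was taken from the last annotated base, 222 to 3527 bases short of the reference end; 2 of the 322 genes lie beyond 20 kb of the reference end.

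Counts were tested with edgeR 4.0.16 (R 4.3.3; robust quasi-likelihood, TMM, filterByExpr with a minimum count of 10, Benjamini-Hochberg adjustment over 6778 sense and 5490 antisense genes, adjusted p 0.05). The biological coefficient of variation was 0.116 on the sense and 0.163 on the antisense strand. Antisense counts used sense library sizes, and genes overlapping a feature on the other strand were left out. Repeated windows are 50-base stretches of a gene found elsewhere in build R64 on either strand. Tables and figures were made with pandas 2.3.3 and matplotlib 3.10.9. The alternatives were other scalings, other count filters, DESeq2 1.42.0, narrower sets of genes, the replicate number as a block, and fits with 1 library left out.

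Genes were named by a rule: the 8 largest rises and falls per mutant on the sense strand (5 between mutants) among passing genes with at least 1 CPM and no overlap of library values, 5 rises and 3 falls on the antisense strand with at least 0.5 CPM, 3 of each for antisense against sense, the 8 highest levels in WT, the HML genes, 2 to 4 genes per family and 4 of the 32 silencing genes per mutant by smallest p. IMD2, YAR073W, YAR075W, SIR2, SIR3 and SIR4 are named outside it. The genes, the lists and the rule were chosen with earlier results of these data known.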

Additional observations from a re-analysis of the deposited data

How the results depend on the processing

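Over the alternatives for the genes named, 1842 of 1909 fits kept direction and side of the threshold, 45 lost the call, 10 gained one and 12 changed sign, all 12 for values that had not passed and did not pass there. Of these, 11 were in ck2ts with 1 ck2ts or WT library left out, where the log2 fold change ran over the leave-one-out fits between -0.25 and 0.79 for FDH2, -0.51 and 0.41 for FDH1, -0.01 and 0.96 for HXT15, -0.05 and 0.96 for HXT16, -0.85 and 0.12 for HXT17, -0.05 and 0.29 for SNZ2, -0.09 and 0.25 for SNZ3, and -0.35 and 0.17 for SNO2. In spt6-7SA ARN2 was at 0.0 with library sizes only. Within 10 kb of an end the rises and falls were 89 and 6 in spt6-7SA against WT, 68 and 31 in ck2ts against WT, and 52 and 8 for spt6-7SA against ck2ts on the sense strand, and 38 and 6, 31 and 17, and 32 and 8 on the antisense strand. Outside near-identical copies the sense counts were 64 and 10, 51 and 20, and 43 and 28 between the mutants, and the antisense counts 42 and 4, 51 and 10, and 16 and 33, the last with more falls than rises where the full set had 55 and 43; these sets hold fewer genes by construction. The 17 falls in spt6-7SA became 10 with library sizes only, a scaling that moved the median of all genes by 0.10 on the log2 scale in that comparison and by 0.11 between the mutants. With the replicate number as a block they became 32, and the 171 rises became 191. Deviations of same-numbered libraries correlated at 0.294 to 0.395, while the labels name no shared culture or day, so the block is given as an alternative only. PAU18 passed as a fall in spt6-7SA with the block (adjusted p = 0.0281). The read share ratio, 1.53 in spt6-7SA and 1.47 in ck2ts, was 1.91 and 1.60 within 10 kb, 1.21 and 1.19 outside near-identical copies and, in ck2ts, 1.35 without YHR214C-B, a choice made after seeing the data, as was the count of ends under each alternative (30 to 32 ends with more rises in spt6-7SA and 20 to 27 in ck2ts over the alternative fits, and 21 and 18 outside near-identical copies). Leaving out 1 library at a time gave, on the sense strand, 116 to 173 rises and 9 to 18 falls in spt6-7SA against WT, 93 to 122 and 47 to 64 in ck2ts against WT, and 76 to 110 and 27 to 38 between the mutants. On the antisense strand it gave 61 to 96 and 1 to 16, 78 to 89 and 26 to 32, and 36 to 56 and 30 to 47. For antisense against sense it gave 21 to 40 rises and 22 to 40 falls in spt6-7SA, and 56 to 68 and 30 to 39 in ck2ts. The cause of these shifts was not tested. Many antisense values rest on under 100 reads a library, which limits their precision.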
